A study of Mus musculus with 4 samples.

Results

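The platelet-derived growth factor (PDGF) genes and the genes used to recognise pericytes were examined as a family in the late-pregnant uterus. The family holds 10 genes taken by name from the 55421 genes of the count files, namely 4 ligand genes (Pdgfa, Pdgfb, Pdgfc and Pdgfd), 2 receptor genes (Pdgfra and Pdgfrb) and 4 pericyte genes (Rgs5, Cspg4, Mcam and Abcc9). The rule names the genes and uses no measured value, although it was drawn up with earlier results of these libraries known. RNA was sequenced from uteri of 2 pregnant wildtype mice (WT, strain C57BL/6J) and 2 pregnant mice of the congenic strain B6.Cg-H2b3/FlaCmwJ (Qa-2-), which lack the MHC class Ib molecule Qa-2. All were collected at gestational age E18.5 after syngeneic mating, with 1 library per uterus and no treatment. The Qa-2- strain is a congenic inbred line and not a targeted knockout made in C57BL/6J, so loss of Qa-2 cannot be told apart from other differences between the strains.

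PDGFs are dimeric growth factors that act through a pair of receptor tyrosine kinases. PDGF-A and PDGF-C act mainly on PDGF receptor alpha, which marks mesenchymal and stromal cells, while PDGF-B and PDGF-D act on PDGF receptor beta, which marks pericytes and vascular smooth muscle. In growing vessels, endothelial cells release PDGF-B and thereby draw pericytes, the contractile cells on the outside of capillaries, to the vessel wall. The study addressed blood supply in pregnancy in these genotypes, with spiral arteries examined earlier in gestation than the uteri used here.

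Total counts lay between 33286390 and 41041299 read pairs per library, and the 10 genes with the largest counts took 10.4% to 11.9% of a library. H2-Q6, one of the genes that encode Qa-2, was counted 4204 times in WT replicate 1, 1192 times in WT replicate 2 and 3 times in each Qa-2- library, in keeping with the labels. H2-Q7, another Qa-2 gene and a near copy with which reads can be confused, had 6318 and 1251 against 4 and 2 counts. The libraries were also unequal in the summed markers of tissues. The summed smooth muscle markers reached 30454 and 49756 CPM (counts scaled to the library total, where 1 CPM is 33.3 to 41.0 read pairs) in WT replicates 1 and 2 and 29034 and 16156 CPM in Qa-2- replicates 1 and 2. The trophoblast and yolk sac list summed to 494 CPM in Qa-2- replicate 1, mostly from Afp, 62.3 CPM in WT replicate 2 and at most 23.4 CPM in the other two. In that list 4 of 11 genes passed the filter (median log2 fold change -2.95, groups overlapping in 4 of 4), and Gcm1 and Ctsq had 0 counts in each library. Of the placental hormone and glycoprotein genes in it, Prl3b1 had 155 counts and Psg21 308 counts in WT replicate 2 and 0 elsewhere, and Prl8a8 had 63 there, 8 in WT replicate 1 and 0 in both Qa-2- libraries. Other genes of the list were also counted in Qa-2- replicate 1. Tpbpa had 4 and 271 counts in WT replicates 1 and 2 and 115 and 5 in Qa-2- replicates 1 and 2. Prl2c2 had 7 and 22 counts in WT against 11 and 0 in Qa-2- uteri. WT replicate 2 was also the highest library for 8 of the 10 members, and the part of placental tissue in their values was not tested. All 7 uterus tissue markers, such as Hoxa10, Hoxa11 and Pgr, were present, summing to between 900.1 and 1064 CPM. Single genes of this list were less even, with log2 fold changes from -0.60 for Esr1 to 1.76 for Oxtr. Oxtr had 66.7 and 133 CPM in WT against 30.3 and 28.7 CPM in Qa-2- uteri. For Esr1 these were 225 and 273 CPM against 350 and 404 CPM. In whole tissue, fewer cells of a type and less RNA per cell cannot be told apart, for this and every result below.

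All 10 genes passed the filter of at least 1 CPM in at least 2 libraries, as did 14492 genes in all. Fold changes are given as WT over Qa-2- from a quasi-likelihood fit with edgeR over all these genes, and the CPM of single genes are further scaled by TMM (trimmed mean of M values) factors (34.9 to 40.1 read pairs for 1 CPM), whereas sums over a list are scaled by the library total alone. Of the 10 genes, 9 had a positive log2 fold change (51.1% of all genes tested did) and 1, Pdgfra, a negative one. The median over the 10 genes was 0.55, whereas it was 0.01 over all genes tested. Both WT libraries lay above both Qa-2- libraries for 5 genes (Pdgfb, Pdgfc, Pdgfd, Pdgfrb and Rgs5), an order that 25.4% of all genes had. Both lay below for Pdgfra, as for 24.5% of all genes, and the groups overlapped for the other 4 genes.

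At an adjusted p under 0.05, no member was called in the quasi-likelihood test of edgeR, after Benjamini-Hochberg adjustment over all genes, and neither was any other gene (0% of those tested). At an unadjusted p under 0.05 there was 1 member, Pdgfb, among the 8.09% of all genes that were higher in WT at this level, and 0 members among the 7.09% that were lower. DESeq2's Wald test called 2.79% of all genes as higher and 2.04% as lower in WT, and 0 of the 10 members. With 2 mice per group, an exact two-sided permutation test of 1 gene cannot give a p below 0.33. On TPM (counts divided by exon length and scaled to an equal sum in each library) the groups stayed apart for 2 of the 10 genes, Pdgfb and Pdgfra, and for 51.6% of all genes. With 1 library against 2, groups overlap less readily. Without Qa-2- replicate 1, 10 members and 76.4% of all genes had no overlap, and without WT replicate 1, 9 members and 77.3% of all genes. Without WT replicate 2 these were 7 members and 74.1%, and without Qa-2- replicate 2 they were 6 members and 71.8%. The median over the 10 genes was 0.22 without WT replicate 2 and 0.24 without Qa-2- replicate 2.

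**Figure D1:**
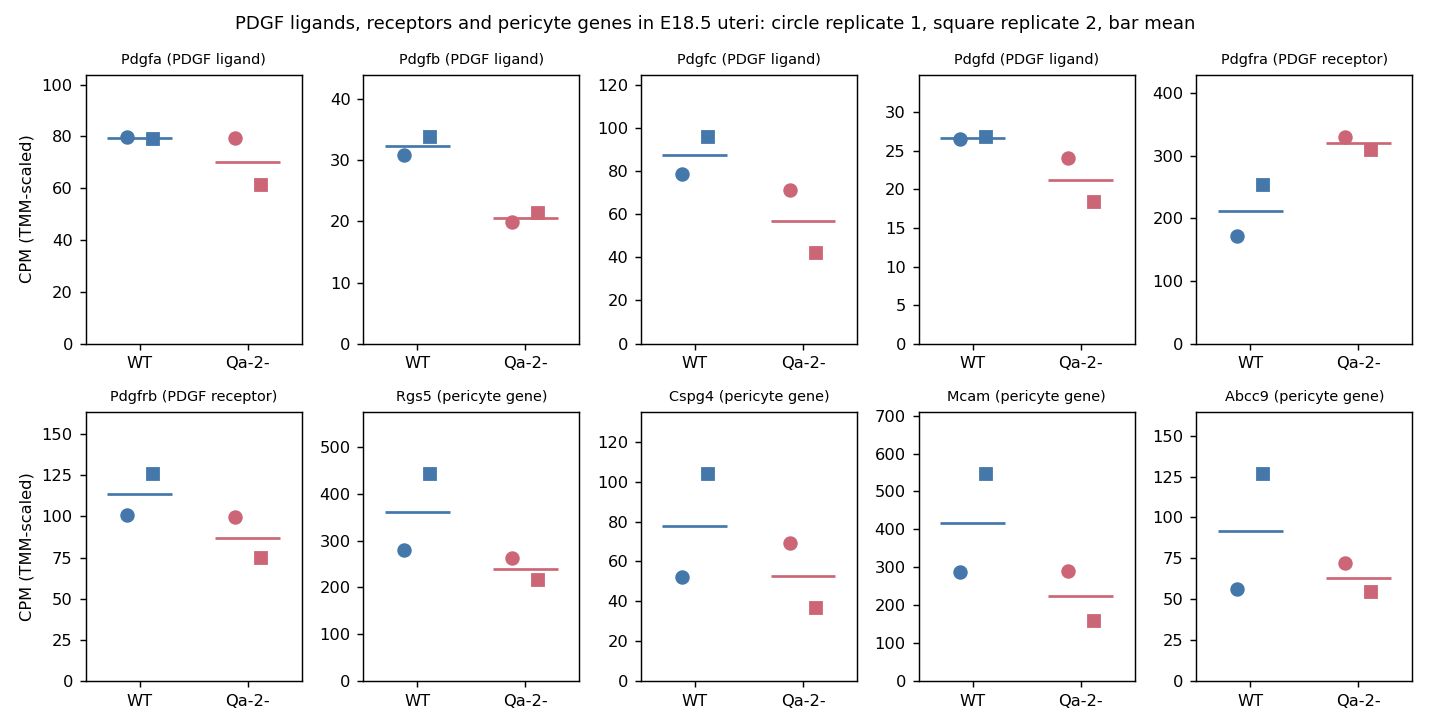
TMM-scaled CPM (vertical axis, from 0) of each of the 10 genes in 2 WT (blue) and 2 Qa-2- (red) uteri, with circles for replicate 1, squares for replicate 2 and bars for the group mean. Pdgfb and Pdgfra show groups that lie apart in opposite directions, from 19.9 to 33.9 CPM for Pdgfb and from 172 to 330.4 CPM for Pdgfra, while the groups of Cspg4, Mcam and Abcc9 interleave.

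Among the ligands, Pdgfb showed the cleanest separation of the genotypes. Pdgfb (ENSMUSG00000000489, chromosome 15 of GRCm38 from 79995874 to 80014977, minus strand), the ligand by which endothelium recruits pericytes, had 30.9 and 33.9 CPM in WT replicates 1 and 2 against 19.9 and 21.3 CPM in Qa-2- replicates 1 and 2. The 2 values of each group were close together and the groups did not overlap. The mean of WT was 32.4 ± 2.10 CPM and that of Qa-2- 20.6 ± 0.997 CPM (SD, n = 2 each), a 1.57-fold difference. The log2 fold change was 0.65 (standard error 0.16, 95% interval 0.25 to 1.05, unadjusted p = 0.00843, adjusted p = 0.255 in edgeR). Over the alternatives with all 4 libraries the adjusted p of Pdgfb ran from 0.091, by DESeq2, to 0.52. Pdgfb stands in the list of genes that the study drew from these same libraries as higher in WT, so its direction is not independent evidence.

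Pdgfc (ENSMUSG00000028019, chromosome 3, 81036416 to 81214040, plus strand) encodes a ligand that is secreted with a CUB domain and becomes active once that domain is cut off. It had 78.7 and 95.9 CPM in WT against 71.1 and 42.2 CPM in Qa-2- uteri. Qa-2- replicate 2 alone was far below the rest. The log2 fold change was 0.62 (standard error 0.29, 95% interval -0.10 to 1.35, adjusted p = 0.373 by edgeR), and without Qa-2- replicate 2 it was 0.30. Pdgfd (ENSMUSG00000032006), the other CUB domain ligand, on chromosome 9 from 6168584 to 6378850, had 26.6 and 26.9 CPM in WT against 24.1 and 18.4 CPM. Its log2 fold change was 0.33 (standard error 0.19, 95% interval -0.16 to 0.82), and without Qa-2- replicate 2 it was 0.15. Pdgfa (ENSMUSG00000025856), the main ligand of the alpha receptor, on chromosome 5 from 138976014 to 138997370, had 79.9 and 79.1 CPM in WT against 79.5 and 61.0 CPM. Here 3 of the 4 libraries were nearly equal. The log2 fold change of Pdgfa was 0.18 (standard error 0.18, 95% interval -0.29 to 0.64), and it was -0.0011 without Qa-2- replicate 2. The antisense gene 6330403L08Rik overlaps the Pdgfa start with 300 to 842 counts on the opposite strand, which the strand-specific counting keeps apart.

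The promoters of 4 members are shown, with a member of each role: Pdgfc, a ligand, Rgs5 and Mcam, pericyte genes with the highest levels per length, and Pdgfra, the receptor with the opposite sign. Pdgfc, Rgs5 and Mcam were all highest in WT replicate 2 and lowest in Qa-2- replicate 2. RefSeq windows on GRCm38.p6 were found for 8 of the 10 members (9 windows, Pdgfa having 2 starts). Each line gives the 250 bases before the transcription start, 5′ to 3′ on the strand of the gene. Capitals mark a CArG box, the motif of 10 bases that serum response factor, the protein encoded by Srf, binds in many smooth muscle genes. It was searched on both strands.

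Pdgfc (chr3:81036166-81036415, plus strand): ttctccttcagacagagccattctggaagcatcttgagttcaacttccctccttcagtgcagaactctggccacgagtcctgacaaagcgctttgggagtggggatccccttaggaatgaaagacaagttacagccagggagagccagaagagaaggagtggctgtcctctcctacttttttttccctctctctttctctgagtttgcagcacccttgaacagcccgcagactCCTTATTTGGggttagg
Rgs5 (chr1:169655251-169655500, plus strand): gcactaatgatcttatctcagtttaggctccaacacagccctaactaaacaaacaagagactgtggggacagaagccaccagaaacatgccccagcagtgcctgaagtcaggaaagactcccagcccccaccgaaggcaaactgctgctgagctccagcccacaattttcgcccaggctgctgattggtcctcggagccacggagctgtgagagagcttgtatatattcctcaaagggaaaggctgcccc
Mcam (chr9:44134408-44134657, plus strand): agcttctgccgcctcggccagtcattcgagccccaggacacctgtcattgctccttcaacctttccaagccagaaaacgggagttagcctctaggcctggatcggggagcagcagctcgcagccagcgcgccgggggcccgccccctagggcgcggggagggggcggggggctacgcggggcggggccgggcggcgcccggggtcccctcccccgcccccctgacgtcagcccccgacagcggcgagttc
Pdgfra (chr5:75152001-75152250, plus strand): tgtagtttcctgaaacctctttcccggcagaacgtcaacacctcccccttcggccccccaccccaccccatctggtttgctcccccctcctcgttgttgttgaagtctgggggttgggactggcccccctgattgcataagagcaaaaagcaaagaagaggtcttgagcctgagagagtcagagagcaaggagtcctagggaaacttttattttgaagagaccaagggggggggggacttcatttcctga

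A CArG box was present in 1 of the 9 member windows, that of Pdgfc, where it lay 17 to 8 bases before the start. Among all 32851 windows of this length, 1.47% held one. Such a match is a description of the letters and was not tested for binding. The GC content of the windows was 50.8% for Pdgfc, 53.6% for Rgs5, 54.4% for Pdgfra and 73.6% for Mcam.

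The receptors had opposite signs. Pdgfra (ENSMUSG00000029231, chromosome 5, 75152292 to 75198215, plus strand), the alpha receptor of stromal cells, was the one member with lower values in WT. It had 172 and 253 CPM in WT replicates 1 and 2 against 330.4 and 309.7 CPM in Qa-2- replicates 1 and 2. The Qa-2- libraries were close together, and the WT libraries were spread 1.47-fold but did not overlap with them. The mean of WT was 212 ± 57.2 CPM and that of Qa-2- 320.1 ± 14.7 CPM (SD, n = 2 each), which is 1.51-fold higher in Qa-2-. The log2 fold change was -0.59 (standard error 0.25, 95% interval -1.24 to 0.05, unadjusted p = 0.0652, adjusted p = 0.353 in edgeR). The sign was negative under each alternative run, and the value was -0.37 without WT replicate 1 and -0.90 without WT replicate 2.

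Pdgfrb (ENSMUSG00000024620, chromosome 18, 61045150 to 61085061, plus strand), the beta receptor of pericytes and vascular smooth muscle, had 101 and 126 CPM in WT against 99.4 and 74.5 CPM in Qa-2- uteri. WT replicate 1 and Qa-2- replicate 1 were almost equal, so the groups did not overlap but nearly touched, and with library totals alone they overlapped. The log2 fold change was 0.38 (standard error 0.22, 95% interval -0.18 to 0.94, adjusted p = 0.452 in edgeR), with a value of 0.19 without Qa-2- replicate 2 and 0.21 without WT replicate 2.

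Because both receptors were measured in the same library, their ratio is free of the scaling between libraries. Per length, Pdgfrb stood at 1.08 and 0.911 times the level of Pdgfra in WT replicates 1 and 2 and at 0.550 and 0.440 times in Qa-2- replicates 1 and 2. By this measure the receptors were about level in both WT uteri, while Pdgfra prevailed in both Qa-2- uteri. The level depends on the exon lengths used, 10024 bases for Pdgfra and 5478 for Pdgfrb. In CPM, Pdgfra stood above Pdgfrb in every library. The mean log2 ratio differed by 1.01 between WT and Qa-2- (exact two-sided permutation test, p = 0.33, the smallest this design allows). The ratio of Pdgfc to Pdgfra was 0.902 and 0.747 in WT against 0.424 and 0.268 in Qa-2- uteri, a log2 difference of 1.28 with the same exact p = 0.33. The ratio of Pdgfa to Pdgfra was 1.49 and 1.005 in WT against 0.774 and 0.633 in Qa-2- uteri, a log2 difference of 0.81 (exact permutation p = 0.33). The ratio of Pdgfb to Pdgfrb did not separate the groups, at 0.403 and 0.355 in WT against 0.264 and 0.377 in Qa-2- uteri. Adjusted over the 8 ratios examined, no p could lie below 0.33.

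**Figure D2:**
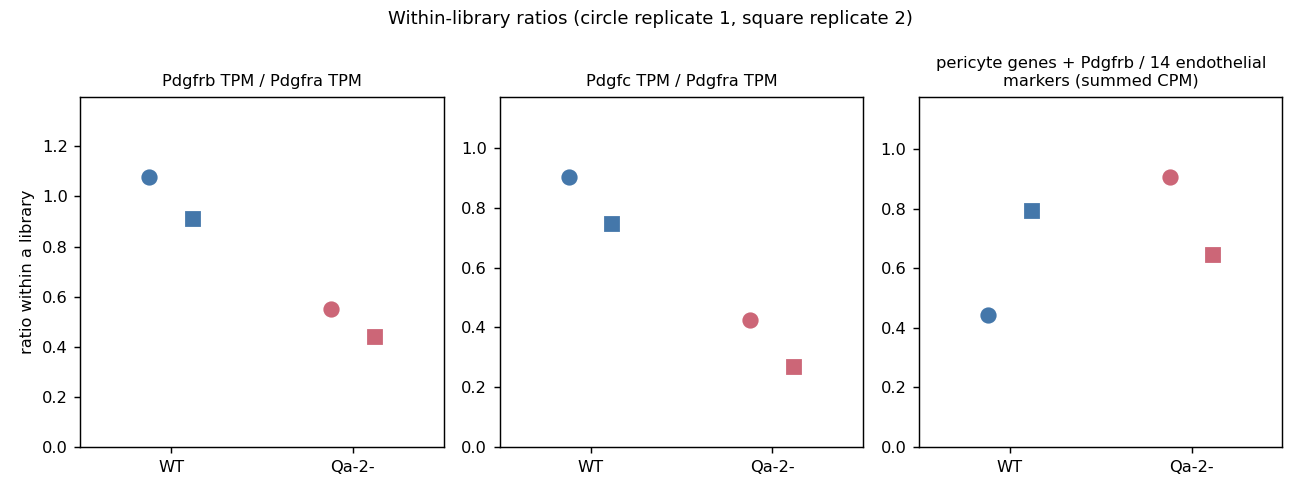
Ratios within each library (vertical axes, from 0) for 2 WT (blue) and 2 Qa-2- (red) uteri, with circles for replicate 1 and squares for replicate 2. Pdgfrb over Pdgfra runs from 0.911 to 1.08 in WT and from 0.440 to 0.550 in Qa-2- uteri, Pdgfc over Pdgfra is likewise separate, and the summed pericyte genes with Pdgfrb over 14 endothelial markers interleave.

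The 4 pericyte genes shared one order of the extremes, highest in WT replicate 2 and lowest in Qa-2- replicate 2. Mcam (ENSMUSG00000032135, chromosome 9, 44134469 to 44142727), the adhesion molecule CD146 of pericytes, endothelium and smooth muscle, had 288 and 546 CPM in WT against 289 and 157 CPM in Qa-2- uteri. Qa-2- replicate 1 lay just above WT replicate 1, so the groups overlapped, and the highest and lowest libraries lay 3.47-fold apart. Without a filter, or with at least 10 counts in every library, Mcam had WT above without overlap. Its log2 fold change was the largest of the 10 genes at 0.90, with a standard error of 0.44 and a 95% interval from -0.22 to 2.02 (adjusted p = 0.395 in edgeR). It was 0.36 without WT replicate 2, 0.53 without Qa-2- replicate 2 and 1.41 without Qa-2- replicate 1.

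Rgs5 (ENSMUSG00000026678, chromosome 1, 169655501 to 169695813), a regulator of G protein signalling that is abundant in pericytes, had 279.96 and 443 CPM in WT against 264 and 215 CPM in Qa-2- uteri. The groups did not overlap, although WT replicate 1 lay close to Qa-2- replicate 1. The log2 fold change was 0.59 (standard error 0.29, 95% interval -0.15 to 1.34), and it was 0.22 without WT replicate 2. Cspg4 (ENSMUSG00000032911, chromosome 9, 56865033 to 56899870) encodes the proteoglycan NG2, a surface marker of pericytes. It had 51.9 and 104 CPM in WT against 69.1 and 36.4 CPM, and WT replicate 1 lay below Qa-2- replicate 1. Its log2 fold change of 0.56 (standard error 0.44, 95% interval -0.56 to 1.69) was -0.026 without WT replicate 2. Abcc9 (ENSMUSG00000030249, chromosome 6, 142587862 to 142702315) encodes SUR2, the regulatory subunit of the vascular ATP-sensitive potassium channel. It had 56.5 and 127 CPM in WT against 72.2 and 54.3 CPM, so a single WT library stood out. Its log2 fold change of 0.53 (standard error 0.41, 95% interval -0.50 to 1.57) was -0.17 without WT replicate 2. In Cspg4, Mcam and Abcc9 the WT libraries differed from each other by 1.90-fold to 2.24-fold, which is more than the fitted differences between the genotypes (1.45-fold to 1.87-fold).

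**Figure D3:**
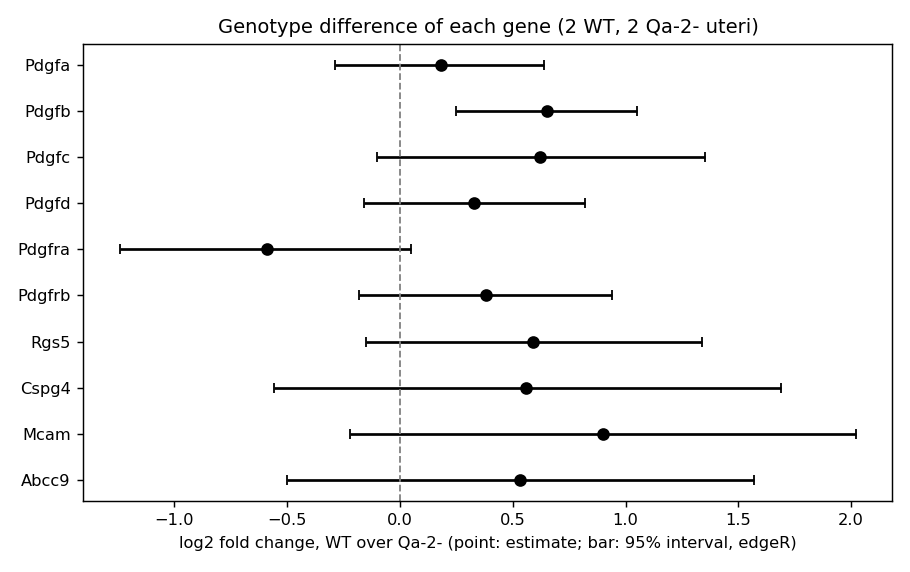
Log2 fold change of each gene, WT over Qa-2- (horizontal axis), with points for the estimate and bars for the 95% interval from edgeR's quasi-likelihood fit of 2 WT and 2 Qa-2- uteri. The interval of Pdgfb (0.25 to 1.05) lies above 0 and the other 9 intervals cross it, with Pdgfra (-1.24 to 0.05) on the negative side.

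The smooth muscle markers had the same extremes as the pericyte genes. All 12 passed the filter, 11 were highest in WT replicate 2 and 12 were lowest in Qa-2- replicate 2. Their median log2 fold change was 0.90, and the groups lay apart with WT above in 7 of 12. None had an unadjusted p under 0.05 in edgeR (0 of 12), and DESeq2 called 2. Des, a muscle intermediate filament, had the highest value of the list (1.22) and Myocd, a coactivator of serum response factor, the lowest (-0.03). The pericyte genes with Pdgfrb, summed, stood at 0.0249 and 0.0258 of the summed smooth muscle markers in WT and at 0.0277 and 0.0349 in Qa-2- uteri. The part of muscle content in the values of Rgs5, Cspg4, Mcam and Abcc9 was not tested, and Mcam and Abcc9 are also known from smooth muscle.

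Endothelial markers were set beside Pdgfb. All 14, among them Pecam1, Kdr and Tie1, lay above every Qa-2- library in each WT library, and their log2 fold changes ran from 0.61 to 1.66 (median 0.86). The highest library was WT replicate 2 for 8 of the 14 and the lowest Qa-2- replicate 2 for 9, and no test compared this list with the pericyte genes. Of the 14, 0 had an adjusted p under 0.05 and 12 an unadjusted p under 0.05 by edgeR, and DESeq2 called 10. Their sum was 1712 and 1623 CPM in WT against 888 and 872 CPM in Qa-2- uteri. The profile of Pdgfb, as the ligand made by endothelium, is given beside them in the plot of library profiles. Relative to the summed endothelial markers, Pdgfb stood at 0.0176 and 0.0200 in WT and at 0.0228 and 0.0257 in Qa-2- uteri. The ratio was higher in both Qa-2- libraries, with a log2 difference of -0.37 for WT minus Qa-2- (exact permutation p = 0.33). The CPM of Pdgfb, in contrast, were lower in both Qa-2- libraries. The part of endothelial content in the value of Pdgfb was not tested.

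The pericyte genes with Pdgfrb, summed, stood at 0.443 and 0.792 of the summed endothelial markers in WT replicates 1 and 2 and at 0.906 and 0.647 in Qa-2- replicates 1 and 2. The groups overlapped. The difference of mean log2 ratios was -0.37 for WT minus Qa-2- (SD 0.59 and 0.34, exact two-sided permutation p = 0.67, where 0.33 is the smallest possible). It was 0.05 without WT replicate 1 and -0.79 without WT replicate 2, so its sign depended on 1 library.

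**Figure D4:**
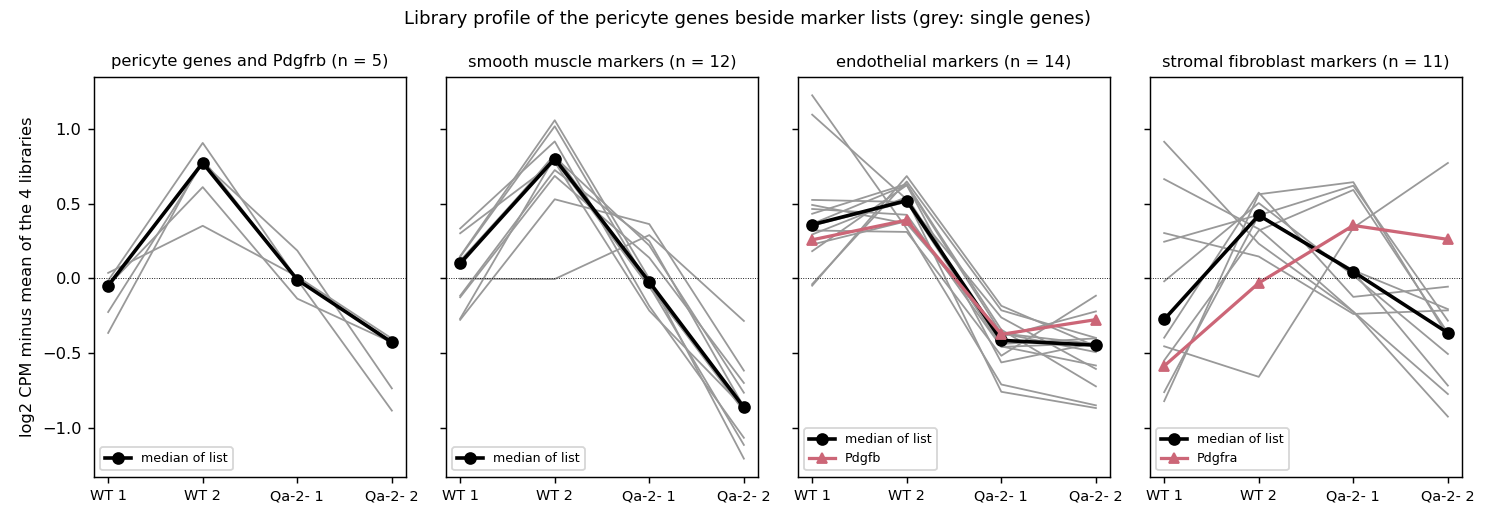
Log2 CPM of each gene minus its mean over the 4 libraries (vertical axis), by library (horizontal axis), with grey lines for single genes, black for the median of the list and red for a named member. The medians of the pericyte genes with Pdgfrb and of the smooth muscle markers peak in WT replicate 2 and are lowest in Qa-2- replicate 2, whereas the endothelial markers and Pdgfb are high in both WT and low in both Qa-2- libraries, and the fibroblast markers follow no common course.

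Other mural cell markers were set beside the pericyte genes. Of 17 genes 15 passed the filter, the transcription factors Tbx18 and Foxf2 having at most 8 counts in a library. All 15 had a positive log2 fold change (median 0.42), and the groups lay apart with WT above in 7. The highest library was WT replicate 2 for 9 of the 15 and WT replicate 1 for 5, and the lowest was Qa-2- replicate 2 for 9. None had an adjusted p under 0.05 by edgeR, 4 had an unadjusted p under 0.05 and DESeq2 called 3. Gucy1a1 and Gucy1b1 encode the subunits of soluble guanylate cyclase, the nitric oxide receptor of mural cells and smooth muscle. Gucy1b1 had 40.1 and 27.7 CPM in WT against 15.6 and 12.1 CPM, a log2 fold change of 1.29 (standard error 0.26, adjusted p = 0.246 by edgeR). Gucy1a1 had 58.0 and 48.4 CPM against 28.8 and 24.6 CPM. Ndufa4l2, a mitochondrial protein gene enriched in pericytes, had the largest value at 1.48, with 34.9 and 14.8 CPM in WT against 10.2 and 7.62 CPM. At the low end, Cd248, the endosialin gene of perivascular and stromal cells, and Heyl, a Notch target, both stood at 0.07. Kcnj8, which encodes the channel pore that pairs with the Abcc9 product and was picked after its values were seen, had 64.1 and 105 CPM against 54.9 and 54.8 CPM. The list thus ran from fold changes near 1 to larger ones than those of the 10 genes.

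Stromal fibroblast markers were set beside Pdgfra. All 11 passed the filter, with a median log2 fold change of 0.26, WT above without overlap in 4 and below in 1. Dcn and Lum, small proteoglycans of the matrix, stood at 0.98 and 1.15, and Fbln1, a matrix glycoprotein gene, at -1.13. Fbln1 had 412 and 357 CPM in WT against 714 and 965 CPM in Qa-2- uteri, the same direction as Pdgfra. The summed list reached 22277 and 40631 CPM in the WT libraries, then 46608 and 26031 CPM in Qa-2- uteri, driven by collagens, so that the sum did not separate the genotypes as Pdgfra did. Pdgfra and the summed list were both highest in Qa-2- replicate 1 and lowest in WT replicate 1, and the remaining libraries stood in a different order. The part of stromal content in the value of Pdgfra was not tested.

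The enzymes and co-receptors around the ligands formed a mixed list. All 10 genes passed the filter, 6 with a positive and 4 with a negative log2 fold change (median 0.26), and the groups lay apart with WT above in 4 and below in 2. None had an adjusted p under 0.05 by edgeR, with 1 at an unadjusted p under 0.05, and DESeq2 called 1. Plau, the urokinase gene whose protease can release active PDGF-D, had 269 and 317 CPM in WT against 155 and 99.1 CPM. This was the largest difference of the list, at a log2 fold change of 1.20 (standard error 0.28, adjusted p = 0.254 in edgeR). Plat, the tissue plasminogen activator gene whose protease cuts PDGF-C, had 79.4 and 85.7 CPM against 72.4 and 47.3 CPM. In the opposite direction, St14, an epithelial membrane protease gene, had 207 and 103 CPM in WT against 238 and 379 CPM (log2 fold change -0.99). Furin, the convertase gene for PDGF-A and PDGF-B precursors, had 197 and 151 CPM against 203 and 294 CPM (log2 fold change -0.51). The epithelial markers had the same sign as St14. All 8 had a negative log2 fold change (median -0.81), 7 without overlap, and they summed to 2819 and 1687 CPM in WT against 4016 and 3942 CPM. The part of epithelium in the values of St14 and Furin was not tested.

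Downstream of the receptors, the 25 signalling genes lay near the middle of all genes. Their median log2 fold change was 0.05, with 15 above and 10 below 0, and the groups lay apart with WT above in 8 and below in 6 of 25. None had an adjusted p under 0.05 by edgeR. At an unadjusted p under 0.05 there were 2, Stat5a and Stat5b, both lower in WT, and DESeq2 called 1. Stat5a, a transcription factor gene activated by many receptors, had 22.2 and 21.2 CPM in WT against 37.2 and 58.8 CPM (log2 fold change -1.14, standard error 0.26, adjusted p = 0.246 by edgeR). Pik3r1, the regulatory subunit of the kinase that binds activated PDGF receptors, had 66.4 and 92.4 CPM against 113 and 104 CPM. At the high end, Srf stood at 0.36 with overlapping groups, and Map2k1, a kinase of the MAP kinase cascade, at 0.34 with 91.3 and 87.5 CPM against 72.5 and 68.6 CPM. These values describe transcript levels of signalling components and not their activity.

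Blood cells are a further source of PDGF transcripts. Platelet and megakaryocyte markers were scarce, with 3 of 7 genes above the filter and a sum of 29.2 to 38.0 CPM over the 4 libraries. Pf4 had a log2 fold change of 0.60, whereas Itga2b and Ppbp were at -0.50 and -0.75. The erythroid list had larger values, with 5 of 6 genes above the filter, all 5 without overlap and with WT above, a median log2 fold change of 2.41, and sums of 356 and 691 CPM in WT against 118 and 79.9 CPM. Of 8 macrophage markers, 5 had WT above without overlap, the median was 0.71 and the sums were 758 and 1088 CPM in WT against 732 and 602 CPM. The part of these cells in the values of Pdgfa, Pdgfb and Pdgfc was not tested.

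Levels can be compared between genes only per length, for which TPM were used. Averaged over the 4 libraries, Mcam (283 TPM) and Rgs5 (196 TPM) stood highest. The ranges of these 2 genes overlapped each other, and both lay above all other members in every library. Pdgfra followed with 80.02 TPM, then Pdgfa with 71.3, Pdgfrb with 54.2 and Pdgfc with 41.8 TPM. Abcc9 with 27.5, Pdgfd with 22.5, Pdgfb with 18.8 and Cspg4 with 16.3 TPM stood lowest. From Pdgfra downward, each gene overlapped its neighbour in this order. Pdgfb, the gene with the clearest separation by genotype, thus had the lowest mean of the 4 ligands, with a range that overlapped that of Pdgfd, at 20.3 and 23.9 TPM in WT against 15.2 and 15.7 TPM in Qa-2- uteri. Among the receptors, Pdgfra had 46.8 and 74.1 TPM in WT and 105 and 94.3 TPM in Qa-2- uteri, and Pdgfrb had 50.3 and 67.5 TPM against 57.7 and 41.5 TPM.

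**Figure D5:**
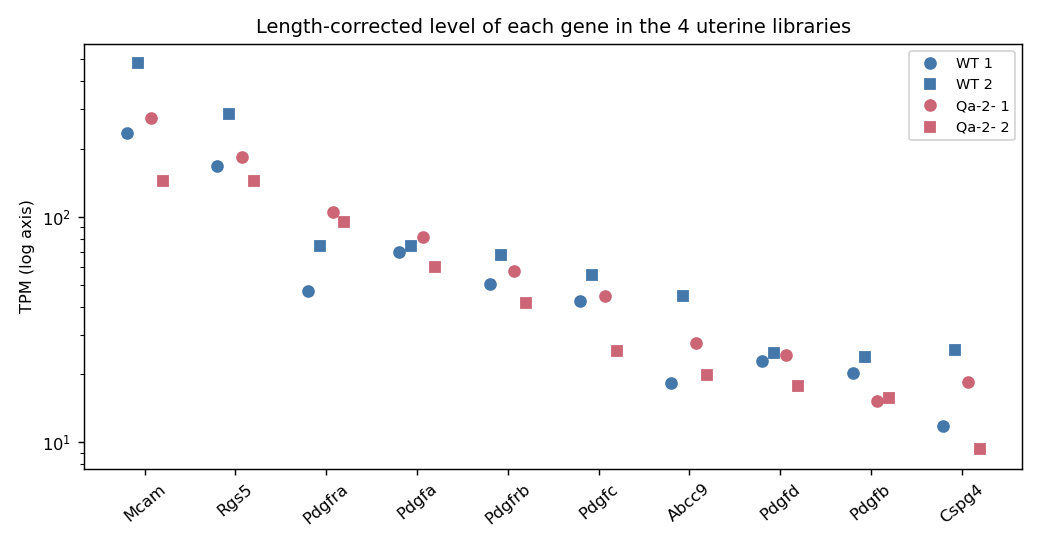
TPM of the 10 genes on a log axis, ordered by the mean over the 4 libraries, with blue for WT and red for Qa-2- uteri, circles for replicate 1 and squares for replicate 2. Mcam and Rgs5 stand above the other genes in each library, and from Pdgfra to Cspg4 the ranges of neighbouring genes overlap.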

How the data were processed

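Counts of read pairs per gene were deposited by the authors without normalization, 1 file per uterus. Per the file headers they came from featureCounts 2.0.0 on GRCm38 (exons, reverse strand, both ends mapped, mapping quality of at least 3). The submitters' processing notes name STAR 2.7.3a and GRCm38.p6. Symbols were taken from GENCODE M21, which gave 55154 of 55421 identifiers a symbol. The study's stated filter (1 CPM or more in 2 or more samples) was used. It left 14492 genes here, fewer than the study states, for a reason that was not found. The study names no test for these counts. The counts were compared with edgeR 4.0.16 (TMM, glmQLFit and glmQLFTest) in R 4.3.3, with adjustment over all 14492 genes. The 95% intervals used the standard error and the total degrees of freedom of the fit. That total adds prior degrees of freedom, estimated across genes, to the residual ones. TPM used the exon lengths of the files. Exact permutation tests used scipy 1.17.1. Replicates are numbered uteri, 2 per genotype, which the study gives as mice, so p-values measure the spread between 2 uteri per group. The libraries of a group differed by more than sampling noise (chi-square per gene of 240.8 and 150.9). Alternatives were DESeq2 1.42.0, other normalizations and filters, a replicate block, another dispersion fit, and leaving out each library. The steps were tested on simulated counts. The crossed block, TPM in place of CPM, and the ratios between single genes or to the smooth muscle sum were added later. Members and lists were chosen with earlier results of these data known. The 10 members are named by rule, and of each other list the 2 highest and 2 lowest log2 fold changes, not all of which are printed. Further list genes, such as Kcnj8, Gucy1a1, Pecam1, Kdr, Tie1, Hoxa10, Hoxa11, Pgr, Gcm1, Ctsq, Prl3b1, Psg21, Prl8a8, Tbx18 and Foxf2, serve as examples chosen afterwards.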

Additional observations from a re-analysis of the deposited data

How the results depend on the processing

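No member was called under any of the 13 alternatives, 9 with all 4 libraries and 4 without 1 library. The number of members whose groups did not overlap was 6, between 5 and 7 under the other scalings and filters of the counts, 2 on TPM, and from 6 to 10 in the fits that left out a replicate. Over all genes tested with the 4 libraries, WT lay above in 25.4% and below in 24.5%, and the groups did not overlap in 51.6% on TPM and in 71.8% to 77.3% when a replicate was left out. The median log2 fold change of the members was 0.55, from 0.45 to 0.56 with all 4 libraries, and from 0.22 to 0.71 in the fits that left out a replicate. Direction changed for Cspg4 (-0.026, range up to 1.1 when a library was left out) and Abcc9 (-0.17, range up to 0.97) without WT replicate 2 and for Pdgfa (-0.0011, range up to 0.38) without Qa-2- replicate 2, and in the other 127 of 130 values of single members it did not. The difference in the mural to endothelial ratio, -0.37 with all libraries, ran from -0.79 to 0.05 when a library was left out, and the value of 0.05 came without WT replicate 1. The cause of these changes was not tested. In a fit without a library, the lone mouse of a group is assumed to vary like the others.

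Same-numbered samples deviated in opposite directions (correlation -0.39). With 2 libraries per group this cannot show whether the numbers pair the mice, and no pairing is stated. With the replicate block the median over the members was 0.49 and 0 members were called, as with the crossed block, where the median was also 0.49. Over all genes the replicate block called 2 genes, the crossed block 0, no filter 61 and DESeq2 700, against 0 in the fit reported. At an unadjusted p under 0.05 the replicate block had 1331 genes, the crossed block 3625 and the fit reported 2199. Over the alternatives with all 4 libraries the lowest adjusted p of a member was 0.0785, for Mcam with the crossed block, a pairing chosen after seeing the data, and the highest adjusted p of Mcam was 0.67. At 1 CPM, before TMM scaling, a library held 33.3 to 41.0 read pairs, so counting error is small for all members, and the number of mice limits the precision.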
